A study of Mus musculus with 12 samples.

Results

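The genes of the p53 pathway described here are p53 itself (Trp53), its regulators and its known target genes outside the Bcl2 family, 32 genes taken from a fixed list of names. They were found by gene symbol among the 18193 genes that the array annotation names, and 29 of the 32 were measured. Trp53, Gdf15 and Fdxr carried no name in that annotation and were not analysed here. Each gene was read from the probe set with the highest mean over all arrays, and 11 of the 29 genes have 1 probe set.

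Mouse embryonic fibroblasts (MEFs), connective tissue cells cultured from embryos, were profiled untreated and in exponential growth on 12 Affymetrix MOE430 2.0 arrays, 3 per group, to examine how loss of the Rb family changes gene expression. TKO-Ras MEFs are labelled with deletions of Rb1, p107 and p130 together with RasG12D, a mutated Ras whose gene copy and promoter the labels do not give. TKO MEFs are labelled with deletions of Rb1, p107 (Rbl1) and p130 (Rbl2), Rb1KO MEFs with a deletion of Rb1 alone, and WT MEFs as wild type. The study's text speaks of triplicates from each cell line, so a genotype and the line that carries it cannot be told apart. Sample titles number the arrays as biological replicates, without naming an embryo or a culture for each, so the p-values measure only the spread between these RNA samples. Values are on the log2 scale of the RMA method throughout, errors are standard errors (SE) of the fit, and a call is an adjusted p below 0.05 from limma, with adjustment over all 45037 probe sets tested.

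p53 is a transcription factor that is kept low by Mdm2 and Mdm4 and is stabilised after DNA damage or when Arf, a product of the Cdkn2a locus, blocks Mdm2. Once active it switches on genes that arrest the cell cycle, start apoptosis, repair DNA or adapt metabolism, and it also induces its own inhibitors Mdm2 and Ppm1d. The Rb family acts in a parallel arm by holding back E2F factors, and the p53 target p21 (Cdkn1a) keeps Rb proteins active by blocking cyclin-dependent kinases.

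The labels were checked first. Rbl1 lay between 4.004 and 4.99 on TKO-Ras arrays and between 4.42 and 5.12 on TKO arrays, at or below the background level of 5.13, against 8.32 to 8.996 on Rb1KO arrays and 8.18 to 8.32 on WT arrays. Rbl2 lay between 4.60 and 5.35 on TKO-Ras arrays (above background on 2 of 3), between 5.27 and 5.71 on TKO arrays (above it on all 3) and between 3.80 and 4.47 on the arrays labelled Rb1KO (below it on all 3), against 7.54 to 7.90 on WT arrays. It was 1.27 higher in TKO than in Rb1KO MEFs (adjusted p = 0.0041), so the lowest Rbl2 was on arrays whose label names Rb1 alone. That level goes against the Rb1KO label, while Rb1 had 6.97 to 7.74 over the 9 knockout arrays against 8.31 to 8.70 on WT arrays. Rb1KO therefore stands below for the arrays so labelled, whatever else their line lacks. Of 8 measured fibroblast markers 7 were above background on all arrays, the exception being Thy1, at 4.64 to 4.92 on TKO-Ras and TKO arrays. Against WT MEFs 4 of the 8 were lower and S100a4 higher in TKO-Ras, 4 were lower in TKO, and 5 were lower in Rb1KO MEFs (Col1a1, Col1a2, Col3a1, Pdgfrb and Thy1, the last at -4.40), with medians of -1.07, -0.37 and -0.87. Over all probe sets 12.4%, 9.01% and 10.1% were called lower, in the same order. Of the genes with a probe set above background on at least 3 arrays these were 19.4%, 13.2% and 16.6%. The part of these marker shifts in the results below was not tested. Of 21 measured markers of other cell types 10 were at or below background on every array, among them Ptprc, Pecam1, Cdh1 and Adipoq. Their summed linear level was 2254 to 3173 in TKO-Ras, 2677 to 3943 in TKO, 1578 to 1730 in Rb1KO and 3152 to 3787 in WT MEFs. The sum was thus lowest in Rb1KO MEFs, though not for each cell type: the leukocyte and macrophage markers summed to 244 to 268 in Rb1KO MEFs against 178 to 226 in WT MEFs. Of the neural markers Sox2 was at 8.58 to 10.31 on TKO-Ras and TKO arrays against 3.07 to 5.54 on Rb1KO and WT arrays, and Map2 was below background on TKO-Ras and TKO arrays against 8.04 to 8.49 on Rb1KO and 10.18 to 10.72 on WT arrays. The part of these markers in the results below was not tested. Fabp4 of the adipocyte markers was lowest in Rb1KO MEFs, at 6.68 to 7.12, against 8.45 to 10.06 in WT MEFs, with Adipoq at background. WT replicate 3 stood apart, with a mean correlation to its own group of 0.974, against 0.991 or more for every array outside the WT group.

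Rb1KO MEFs had the most calls against WT MEFs. In Rb1KO MEFs compared to WT MEFs, 14 of the 29 genes were lower and 2 were higher (Ppm1d and Pml), where 10.1% and 12.5% of all probe sets were called in these directions and 22.6% in all. That split over all probe sets depends on scaling, with 5646 higher and 4537 lower as deposited and 4271 higher and 5596 lower after cyclic loess, with 14 members lower in either fit. The 14 genes were Cdkn1a, Btg2, Ccng1, Eda2r, Perp, Trp53inp1, Ei24, Zmat3, Phlda3, Xpc, Polk, Ercc5, Sesn2 and Ddit4, and the median log2 fold change of the 29 genes was -0.49, against 0.07 over all probe sets. Of the genes with a probe set above background on at least 3 arrays, 16.6% were called lower in this comparison. In RNA from a whole culture, fewer cells of a type and less RNA per cell cannot be told apart.

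TKO MEFs, labelled as lacking Rb1 and its relatives, had few calls. Against WT MEFs, 2 of the 29 genes were called in TKO MEFs, Ppm1d higher and Xpc lower, where 19.5% of all probe sets were called (10.5% higher and 9.01% lower), and the median was 0.10. Set against Rb1KO MEFs directly, 12 of the 29 genes were higher in TKO MEFs and 0 were lower, where 7.17% of all probe sets were called (4.19% higher and 2.99% lower). Of the genes with a probe set above background on at least 3 arrays, 8.3% were called higher. Of the 12 genes, 11 were also among the 14 that were lower in Rb1KO than in WT MEFs. These comparisons share the Rb1KO arrays. The median of the 29 genes was 0.72, against -0.04 over all probe sets. That 0 members were lower depends on the setting. With only the groups compared 14 members were higher and 3 lower, beside 2491 and 1824 of all probe sets.

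In TKO-Ras against WT MEFs 8 of the 29 genes (27.6%) were called, near the share over all probe sets. Of the genes with a probe set above background on at least 3 arrays, 44.0% were called in this comparison. Against WT MEFs, 3 of the 29 genes were higher (Ppm1d, Pml and Plk3) and 5 were lower (Mdm4, Btg2, Fas, Dram1 and Xpc), where 27.9% of all probe sets were called (15.5% higher and 12.4% lower; after cyclic loess 5177 were higher and 6658 lower, against 7001 and 5575 as deposited). Against TKO MEFs, Plk3 was higher and Mdm4, Btg2, Fas and Dram1 were lower, where 5.67% of all probe sets were called (2.54% higher and 3.13% lower). The medians of the 29 genes were -0.04 and -0.09, against 0.09 and 0.04 over all probe sets. Over the 5 comparisons 20 genes were called at least once and 9 never: Mdm2, Gadd45a, Plk2, Tnfrsf10b, Aen, Ddb2, Rrm2b, Sesn1 and Tigar. A gene could be called in any of the 5, and the comparisons share arrays. The share of all probe sets called at least once was not taken, so the 20 cannot be set against it.

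**Figure D1:**
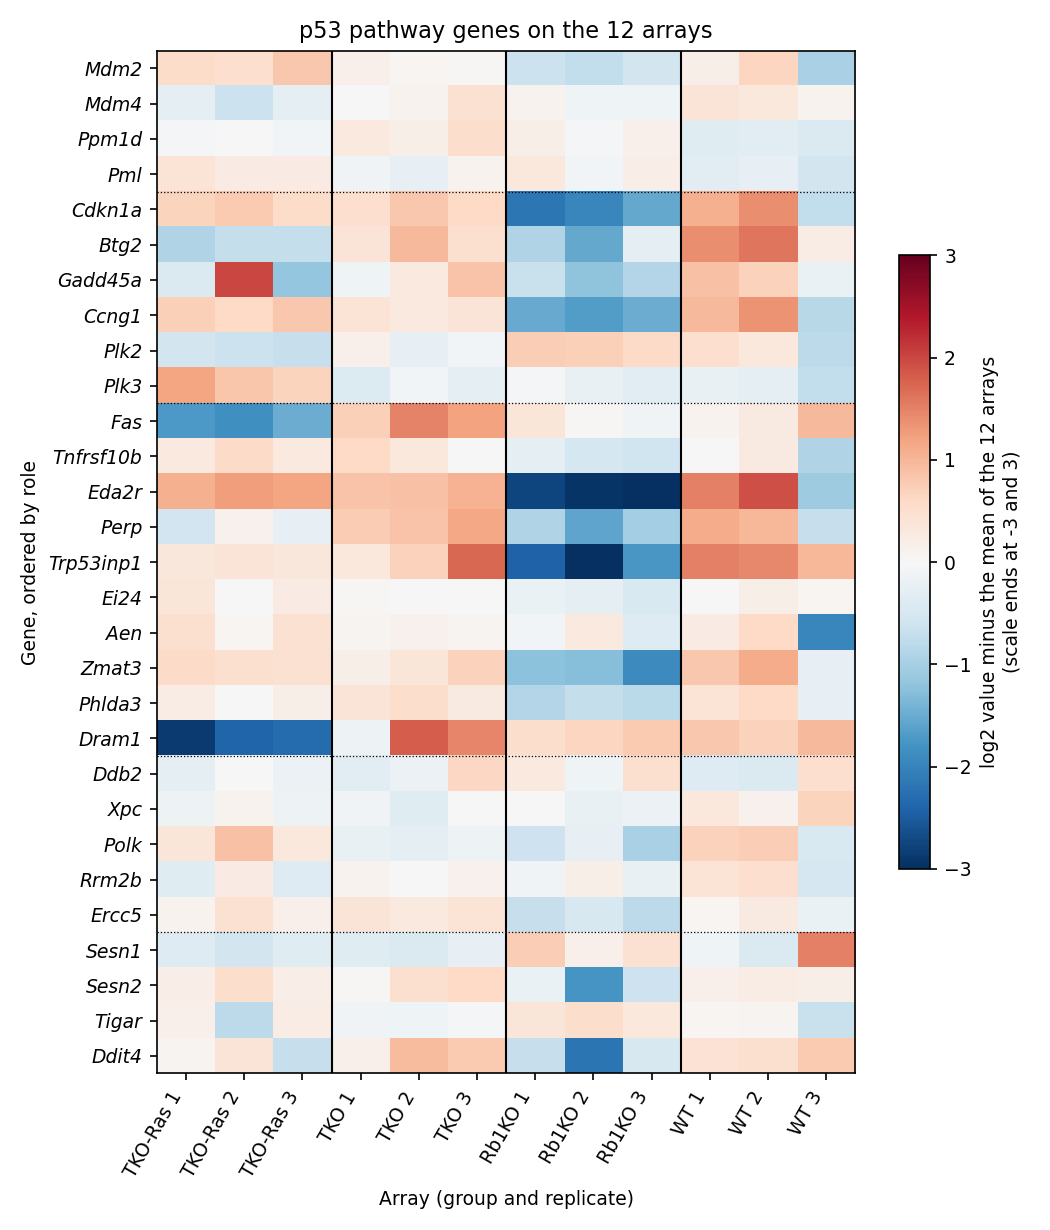
Each row is a p53 pathway gene, ordered by role with dotted lines between roles, and each column an array. Colour gives the log2 RMA value minus the gene's mean over the 12 arrays, red above and blue below; the 3 Rb1KO columns are blue for Cdkn1a, Ccng1, Eda2r, Trp53inp1 and Zmat3, the 3 TKO-Ras columns for Fas and Dram1, and WT 3 departs from WT 1 and WT 2 in many rows.

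The heat map of the 12 arrays shows where the groups separate. For 10 of the 29 genes all 3 Rb1KO arrays lay below all other 9 arrays, a placement found in 2.87% of all probe sets; these were Cdkn1a, Ccng1, Eda2r, Perp, Trp53inp1, Ei24, Zmat3, Phlda3, Ercc5 and Sesn2. Plk2 and Tigar had all 3 Rb1KO arrays above the other 9, which 3.61% of all probe sets show. The TKO-Ras arrays were all below the rest for Mdm4, Fas and Dram1 (3.41% of all probe sets) and all above the rest for Plk3 (4.17%). The WT arrays were all below the rest for Ppm1d (10.3% of all probe sets) and all above the rest for Xpc (7.45%). For no member did the 3 TKO arrays lie together outside the other 9, as they did above them in 1.76% and below them in 1.42% of all probe sets.

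**Figure D2:**
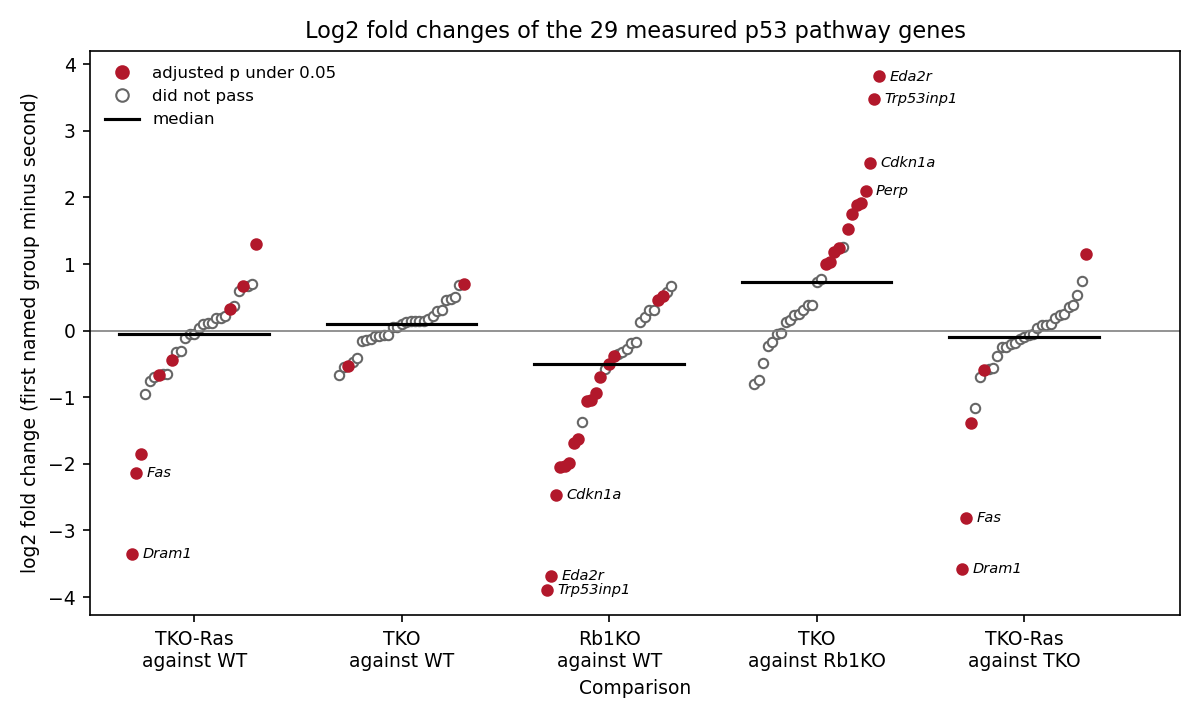
Log2 fold changes (first named group minus second) of the 29 genes in the 5 comparisons, each point a gene, sorted within a comparison. Filled points passed an adjusted p under 0.05, open points did not, and bars are medians; the Rb1KO against WT points reach -3.89 (Trp53inp1) and the TKO against Rb1KO points 3.82 (Eda2r), while the TKO against WT points stay between -0.67 and 0.70.

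Among the inhibitors and cofactors of p53, the ubiquitin ligase Mdm2, which marks p53 for degradation and is itself a p53 target, was not called in any comparison. Mdm2 had 10.38, 10.34 and 10.64 in TKO-Ras MEFs, 9.99, 9.89 and 9.88 in TKO MEFs, 9.20, 9.10 and 9.29 in Rb1KO MEFs, and 10.002, 10.47 and 8.85 in WT MEFs. The Rb1KO arrays lay below all TKO-Ras and TKO arrays and between WT replicate 3 and the other WT arrays. Its log2 fold change in Rb1KO against WT MEFs was -0.58 (SE 0.30, adjusted p = 0.21), and without WT replicate 3 it was -1.04 (adjusted p = 3.5e-04). For Mdm2 the difference of TKO-Ras from WT MEFs was 0.67 on this scale (adjusted p = 0.12), which passed only without WT replicate 2, at 1.02 (adjusted p = 0.015). Against Rb1KO MEFs it had 0.72 in TKO MEFs (95% interval 0.06 to 1.39, adjusted p = 0.21). A second Mdm2 probe set above background gave -0.54 in Rb1KO against WT MEFs, and the third was at background.

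Mdm4, which binds p53 and blocks its activity, was lower in TKO-Ras MEFs, with a log2 fold change of -0.67 against WT (SE 0.15, adjusted p = 0.0055) and -0.60 against TKO MEFs (SE 0.15, adjusted p = 0.037). The second call was lost in 5 of the 6 fits that left out 1 array, all but the one without TKO replicate 1, with values between -0.69 and -0.47 and adjusted p up to 0.13. The Mdm4 probe sets did not move together: one gave -0.49 in TKO-Ras against WT MEFs (adjusted p = 0.070) and another 0.26 (adjusted p = 0.17).

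Ppm1d, the phosphatase Wip1 that removes activating phosphates from p53 and its kinases, was higher in all 3 knockout groups. Its log2 fold change against WT MEFs was 0.33 in TKO-Ras (adjusted p = 0.041), 0.70 in TKO (adjusted p = 8.4e-04) and 0.47 in Rb1KO MEFs (adjusted p = 0.0087). The TKO-Ras call was lost whichever 1 array of either group was left out (adjusted p 0.064 to 0.11). Pml, the scaffold of nuclear bodies where p53 is modified, was 0.67 higher in TKO-Ras (adjusted p = 0.0035) and 0.52 higher in Rb1KO MEFs (adjusted p = 0.018) than in WT MEFs. The Pml call in Rb1KO MEFs was lost without Rb1KO replicate 1, Rb1KO replicate 3 or WT replicate 3, with values of 0.42 to 0.63 over the 6 fits and adjusted p up to 0.072.

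Of 6 measured arrest genes, 3 fell in Rb1KO against WT MEFs (Cdkn1a, Btg2 and Ccng1) and all 3 were higher in TKO than in Rb1KO MEFs. Over all probe sets 10.1% were called lower in the first comparison and 4.19% higher in the second. Cdkn1a encodes p21, the cyclin-dependent kinase inhibitor through which p53 halts the cycle in G1. It had 11.12, 11.24 and 10.99 in TKO-Ras MEFs, 10.94, 11.27 and 11.04 in TKO MEFs, 8.27, 8.496 and 8.91 in Rb1KO MEFs, and 11.52, 11.84 and 9.70 in WT MEFs. The 3 Rb1KO arrays lay below every other array, and the TKO-Ras and TKO arrays lay within the range of the WT arrays.

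Cdkn1a was thus 5.52-fold lower in Rb1KO than in WT MEFs, a log2 fold change of -2.46 (SE 0.42, adjusted p = 0.0015). It was 5.75-fold higher in TKO than in Rb1KO MEFs (log2 fold change 2.52, SE 0.42, adjusted p = 0.0037). Both calls held in every fit that left out 1 array, with values of -3.12 to -2.06 against WT MEFs and 2.38 to 2.70 in TKO against Rb1KO MEFs, and the second Cdkn1a probe set was called the same way in both. The difference of TKO from WT MEFs in Cdkn1a was 0.06 on the log2 scale (95% interval -0.87 to 0.99, adjusted p = 0.95). That value rests on WT replicate 3, since without it Cdkn1a was -0.60 in TKO MEFs (adjusted p = 0.037) and -0.56 in TKO-Ras MEFs (adjusted p = 0.039).

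Ccng1 encodes cyclin G1, an early p53 target, and was also lowest in Rb1KO MEFs. It had 12.36, 12.26 and 12.46 in TKO-Ras MEFs, 12.06, 11.94 and 12.03 in TKO MEFs, 10.14, 9.99 and 10.16 in Rb1KO MEFs, and 12.63, 12.99 and 10.82 in WT MEFs. The Rb1KO arrays did not overlap with any other group, and WT replicate 3 lay nearest to them. The log2 fold change was -2.05 in Rb1KO against WT MEFs (SE 0.41, adjusted p = 0.0038) and 1.92 in TKO against Rb1KO MEFs (SE 0.41, adjusted p = 0.016). The second of these was at or past an adjusted p of 0.050 without TKO replicate 3 or any 1 of the Rb1KO arrays (up to 0.058), with values between 1.86 and 1.95.

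Btg2, an antiproliferative gene induced early by p53, was low in both Rb1KO and TKO-Ras MEFs. It had 7.70, 7.87 and 7.88 in TKO-Ras MEFs, 8.98, 9.57 and 9.08 in TKO MEFs, 7.69, 7.05 and 8.30 in Rb1KO MEFs, and 9.99, 10.21 and 8.82 in WT MEFs. The arrays of both low groups lay below all TKO and all WT arrays. Against WT MEFs the log2 fold change was -1.86 in TKO-Ras (SE 0.36, adjusted p = 0.0027) and -1.99 in Rb1KO MEFs (adjusted p = 0.0021), and both calls held without any 1 array. Btg2 was 1.53 higher in TKO than in Rb1KO MEFs (adjusted p = 0.026) and had -1.39 in TKO-Ras against TKO MEFs (adjusted p = 0.047). The first of these was lost without TKO replicate 2 or 3 or without Rb1KO replicate 1 or 2 (values 1.21 to 1.84, adjusted p up to 0.11), and the second was lost whichever array was left out (values -1.51 to -1.21, adjusted p up to 0.17).

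Plk3, a stress-responsive polo-like kinase, was the arrest gene that rose in TKO-Ras MEFs. Plk3 had 8.47, 8.12 and 7.96 in TKO-Ras MEFs, 6.89, 7.21 and 7.002 in TKO MEFs, 7.25, 7.07 and 6.95 in Rb1KO MEFs, and 7.07, 7.03 and 6.57 in WT MEFs. All TKO-Ras arrays lay above the other 9, among which the groups overlapped. It was 2.46-fold higher than in WT MEFs (log2 fold change 1.30, SE 0.17, adjusted p = 1.9e-04) and 2.22-fold higher than in TKO MEFs (1.15, SE 0.17, adjusted p = 0.0025), and both calls held without any 1 array. The related kinase Plk2, also a p53 target, had -0.65 in TKO-Ras against WT MEFs (adjusted p = 0.091) and 0.67 in Rb1KO against WT MEFs (adjusted p = 0.098). Gadd45a, a growth arrest gene of the stress response, varied most within a group, with 8.97, 11.42 and 8.23 on the TKO-Ras arrays (SD 1.67), and its log2 fold changes of -1.38 in Rb1KO against WT and 1.25 in TKO against Rb1KO MEFs did not pass.

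**Figure D3:**
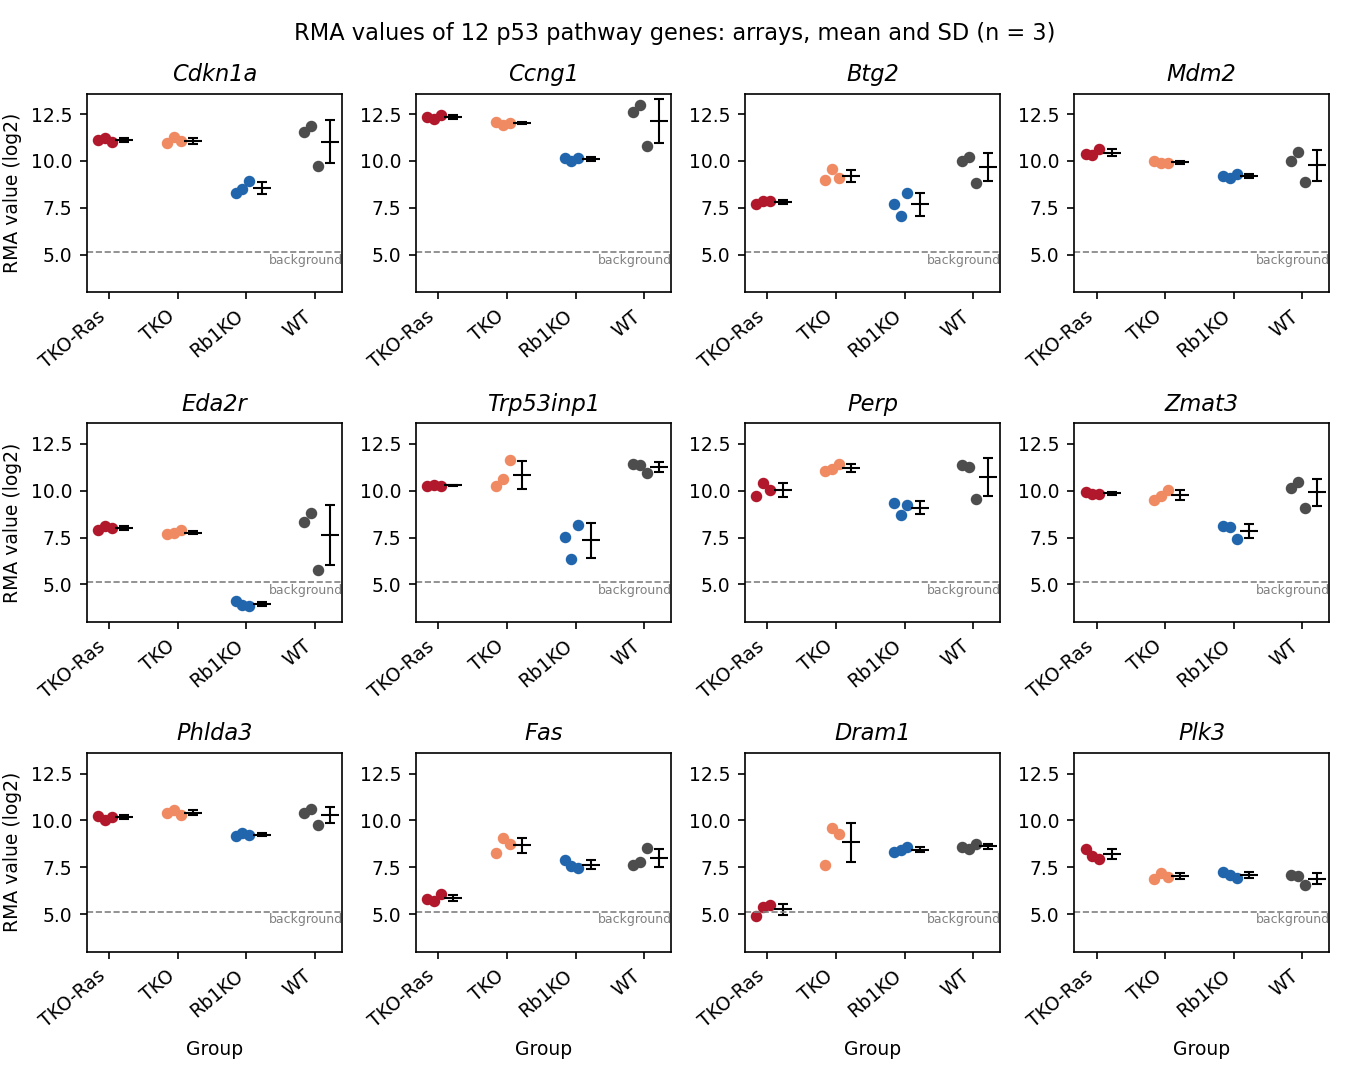
Log2 RMA values of 12 p53 pathway genes, one panel each, with the 3 arrays of a group as points and the mean with SD (n = 3) beside them; the dashed line is the background level of 5.13. The Rb1KO points lie lowest for Cdkn1a, Ccng1, Eda2r, Trp53inp1, Perp, Zmat3 and Phlda3, the TKO-Ras points lie lowest for Fas and Dram1 and highest for Plk3, and the WT error bars are wide for Cdkn1a, Ccng1, Mdm2, Eda2r and Perp.

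To set sequence beside these values, promoter windows of 300 bases (250 before to 50 after a listed start) from RefSeq on GRCm38.p6 were searched for the p53 response element consensus, 2 half-sites of 10 bases with 0 or 1 base between them, allowing 1 mismatch over the 20 positions. Windows were matched by symbol for 25 of the 32 genes, 22 of the 29 measured, with 31 windows in all. Of the 31 windows 3 held such an element, 1 each of Cdkn1a, Ccng1 and Polk, against 58 of all 32851 windows (0.177%). The 3 elements are shown for this match alone, in capitals with 15 bases on either side, 5′ to 3′ on the gene's strand. The 3 genes are among the 14 of 29 measured that were called lower in Rb1KO than in WT MEFs. For Polk these 2 groups overlapped. A match describes letters only, and binding was not measured.
Cdkn1a, chr17:29090913-29090962, plus strand: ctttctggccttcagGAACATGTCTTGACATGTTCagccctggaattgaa
Ccng1, chr11:40755447-40755496, minus strand: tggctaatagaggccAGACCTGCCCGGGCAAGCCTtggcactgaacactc
Polk, chr13:96519383-96519433, minus strand: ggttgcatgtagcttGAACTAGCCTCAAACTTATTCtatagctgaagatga
The Cdkn1a element starts 51 bases before the upstream one of its listed starts and 2841 bases before the other. The Ccng1 element starts 195 bases before its start. The Polk element, with a spacer of 1 base, starts 231 bases before the downstream one of its listed starts. The window of the upstream Polk start (chr13:96542530-96542829) had 6 mismatches at best and no exact half-site. A single exact half-site was found in at least 1 window of 11 of the 25 genes, which have 31 windows. The share over all windows was 8.36%, counted by window and not by gene. The E2F motifs TTTCCCGC, TTTGGCGC and TTTCGCGC, searched on both strands, were in 0 of the members' windows and in 1.84% of all windows.

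The apoptosis and death receptor genes held the member with the widest log2 fold change in every comparison except TKO against WT MEFs. Of 10 measured genes, 6 fell in Rb1KO against WT MEFs (Eda2r, Perp, Trp53inp1, Ei24, Zmat3 and Phlda3). In TKO against Rb1KO MEFs 6 were higher, with Fas in place of Ei24. None of the 10 passed in TKO against WT MEFs, and 2 fell in TKO-Ras against WT MEFs, Fas and Dram1. Over all probe sets 10.1% were lower in Rb1KO against WT, 4.19% higher in TKO against Rb1KO and 12.4% lower in TKO-Ras against WT MEFs, the last not far from 2 of 10.

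Trp53inp1 encodes a nuclear protein that p53 induces and that promotes p53-dependent cell death. It had 10.27, 10.32 and 10.26 in TKO-Ras MEFs, 10.24, 10.61 and 11.65 in TKO MEFs, 7.51, 6.36 and 8.18 in Rb1KO MEFs, and 11.43, 11.36 and 10.93 in WT MEFs. The Rb1KO arrays lay below every other array, and here WT replicate 3 was close to the other WT arrays. The gene was 14.8-fold lower in Rb1KO than in WT MEFs (log2 fold change -3.89, SE 0.42, adjusted p = 6.6e-05). It was 11.2-fold higher in TKO than in Rb1KO MEFs (log2 fold change 3.49, SE 0.42, adjusted p = 4.1e-04). Both calls held in every fit without 1 array. A second Trp53inp1 probe set, with no group mean over 5.74, gave -0.47 in Rb1KO against WT (adjusted p = 0.071) and 0.61 in TKO against Rb1KO MEFs (adjusted p = 0.057), and was not called.

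Eda2r, a death receptor of the TNF receptor family that binds ectodysplasin A2, fell to background in Rb1KO MEFs. It had 7.92, 8.10 and 8.02 in TKO-Ras MEFs, 7.69, 7.72 and 7.88 in TKO MEFs, 4.08, 3.91 and 3.85 in Rb1KO MEFs, and 8.34, 8.78 and 5.78 in WT MEFs. All 3 Rb1KO arrays were below the background level, and WT replicate 3 lay just above it. Against that level Eda2r was at least 5.66-fold lower in Rb1KO than in WT MEFs (log2 fold change of the fit -3.69, SE 0.57, adjusted p = 7.1e-04). Between TKO and Rb1KO MEFs the gene was higher in TKO by at least 6.21-fold (log2 fold change of the fit 3.82, SE 0.57, adjusted p = 0.0017). Without WT replicate 3 the Rb1KO value was -4.61 (adjusted p = 3.2e-09), and Eda2r was then also lower in TKO (-0.79) and TKO-Ras MEFs (-0.55) than in WT MEFs.

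Zmat3, a zinc finger protein that binds RNA, and Phlda3, which restrains Akt at the membrane, moved with these genes. Zmat3 had 9.92, 9.83 and 9.80 in TKO-Ras MEFs, 9.52, 9.70 and 10.04 in TKO MEFs, 8.10, 8.06 and 7.44 in Rb1KO MEFs, and 10.16, 10.45 and 9.10 in WT MEFs. Phlda3 had 10.25, 10.04 and 10.20 in TKO-Ras MEFs, 10.40, 10.54 and 10.29 in TKO MEFs, 9.14, 9.30 and 9.22 in Rb1KO MEFs, and 10.42, 10.61 and 9.78 in WT MEFs. For both genes the Rb1KO arrays lay below all others. In Rb1KO against WT MEFs the log2 fold change was -2.04 for Zmat3 (SE 0.30, adjusted p = 5.5e-04) and -1.05 for Phlda3 (SE 0.18, adjusted p = 0.0014). In TKO against Rb1KO MEFs it was 1.88 for Zmat3 (adjusted p = 0.0027) and 1.19 for Phlda3 (adjusted p = 0.0018), and these 4 calls held without any 1 array.

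Perp, a membrane protein of desmosomes that takes part in p53-dependent apoptosis, had 9.70, 10.40 and 10.01 in TKO-Ras MEFs, 11.03, 11.13 and 11.42 in TKO MEFs, 9.36, 8.68 and 9.26 in Rb1KO MEFs, and 11.37, 11.25 and 9.56 in WT MEFs. The Rb1KO arrays were again the lowest, with WT replicate 3 next above them and below all TKO-Ras and TKO arrays. Perp was 2.10 higher in TKO than in Rb1KO MEFs (SE 0.40, adjusted p = 0.0082), a call that held without any 1 array. In Rb1KO against WT MEFs it had -1.63 (SE 0.40, adjusted p = 0.013), not called without Rb1KO replicate 2 (-1.42, adjusted p = 0.055) or WT replicate 1 (-1.31, adjusted p = 0.053). Ei24, a protein of the endoplasmic reticulum induced by p53, was lower by less, at -0.38 (SE 0.11, adjusted p = 0.028), and this was lost without Rb1KO replicate 2, Rb1KO replicate 3 or WT replicate 2 (values -0.44 to -0.31, adjusted p up to 0.11).

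Fas and Dram1 were lower in TKO-Ras than in WT and TKO MEFs. Fas, the receptor of Fas ligand, had 5.83, 5.71 and 6.04 in TKO-Ras MEFs, 8.25, 9.03 and 8.75 in TKO MEFs, 7.91, 7.59 and 7.44 in Rb1KO MEFs, and 7.64, 7.80 and 8.53 in WT MEFs. The TKO-Ras arrays lay below all others, and the TKO arrays above all Rb1KO arrays. Fas was 4.38-fold lower in TKO-Ras than in WT MEFs (log2 fold change -2.13, SE 0.25, adjusted p = 7.8e-05) and 7.05-fold lower than in TKO MEFs (-2.82, SE 0.25, adjusted p = 7.4e-05). Both calls held without any 1 array. The 1.03 by which Fas was higher in TKO than in Rb1KO MEFs (adjusted p = 0.027) did not hold without TKO replicate 2 or 3 or Rb1KO replicate 2 or 3 (values 0.86 to 1.25, adjusted p up to 0.11).

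Dram1, a lysosomal membrane protein that links p53 to autophagy, had 4.92, 5.39 and 5.47 in TKO-Ras MEFs, 7.64, 9.61 and 9.25 in TKO MEFs, 8.32, 8.42 and 8.58 in Rb1KO MEFs, and 8.59, 8.49 and 8.76 in WT MEFs. In TKO-Ras MEFs 2 of 3 arrays were above background, by little, while the other groups overlapped far above it. The log2 fold change of TKO-Ras MEFs was -3.36 against WT (SE 0.39, adjusted p = 7.8e-05) and -3.58 against TKO MEFs (SE 0.39, adjusted p = 3.2e-04), both held without any 1 array. Of the fibroblast markers, Col1a1, Col1a2 and Pdgfrb were lower in this group than in WT and TKO MEFs. Col3a1 was also lower than in TKO MEFs, at 13.06 to 13.41 against 14.22 to 14.37, and Thy1 was lower than in WT MEFs. S100a4 was higher than in WT MEFs, and Col3a1 was lowest in Rb1KO MEFs. Col1a1 was at 8.82 to 9.52 in TKO-Ras, 11.68 to 11.81 in TKO, 10.49 to 10.64 in Rb1KO and 12.34 to 12.88 in WT MEFs. The part of these markers in the Fas and Dram1 results was not tested. Tnfrsf10b, the mouse TRAIL receptor, and Aen, a nuclease that p53 induces, were called in no comparison; Tnfrsf10b was called lower in Rb1KO against WT MEFs without WT replicate 3 (-0.62, adjusted p = 0.025).

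Among the 5 DNA repair genes, Ercc5, the XPG nuclease of nucleotide excision repair, was the one called in both Rb1KO comparisons. It had 8.43, 8.77 and 8.47 in TKO-Ras MEFs, 8.71, 8.61 and 8.72 in TKO MEFs, 7.63, 7.85 and 7.54 in Rb1KO MEFs, and 8.38, 8.58 and 8.13 in WT MEFs. The Rb1KO arrays lay below all other arrays and the TKO arrays above all WT arrays, the latter by only 0.029 at the nearest. Ercc5 was -0.69 in Rb1KO against WT MEFs (SE 0.14, adjusted p = 0.0037) and 1.005 in TKO against Rb1KO MEFs (SE 0.14, adjusted p = 9.6e-04), and both calls held without any 1 array.

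Xpc, the damage sensor of the same repair pathway, was lower than in WT MEFs in all 3 knockout groups, and all WT arrays lay above the other 9. Its log2 fold change against WT MEFs was -0.44 in TKO-Ras (adjusted p = 0.047), -0.53 in TKO (adjusted p = 0.027) and -0.49 in Rb1KO MEFs (adjusted p = 0.033). Each of these was lost in 4 of the 6 fits that left out 1 array, WT replicates 1 and 3 among them, with values down to -0.29, -0.38 and -0.35 without WT replicate 3. Polk, a polymerase that copies past damaged bases, had -0.93 in Rb1KO against WT MEFs (SE 0.30, adjusted p = 0.042) although the groups overlapped, with 7.78, 8.15 and 7.44 in Rb1KO and 9.09, 9.15 and 7.93 in WT MEFs. The Polk call was lost without Rb1KO replicate 1 or 3 or WT replicate 1 or 2 (adjusted p up to 0.15), while without WT replicate 3 the value was -1.33 (adjusted p = 6.3e-04). Ddb2, a sensor of ultraviolet damage, and Rrm2b, the p53-inducible subunit of ribonucleotide reductase, were called in no comparison and stayed between -0.31 and 0.32 in all 5.

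Of the 4 metabolic and stress genes measured, Sesn2 and Ddit4, which both restrain the mTORC1 kinase, fell in Rb1KO against WT MEFs. Over all probe sets 10.1% were called lower in this comparison. Sesn2 had 9.15, 9.48 and 9.17 in TKO-Ras MEFs, 8.99, 9.43 and 9.55 in TKO MEFs, 8.76, 7.18 and 8.34 in Rb1KO MEFs, and 9.12, 9.18 and 9.13 in WT MEFs. Ddit4 had 10.41, 10.72 and 9.65 in TKO-Ras MEFs, 10.49, 11.28 and 11.11 in TKO MEFs, 9.64, 8.15 and 9.85 in Rb1KO MEFs, and 10.77, 10.81 and 11.12 in WT MEFs. In both, Rb1KO replicate 2 was the lowest array by over 1 log2 unit within its group. Ddit4 was -1.69 in Rb1KO against WT MEFs (SE 0.41, adjusted p = 0.011), called without any 1 array, with -1.16 without Rb1KO replicate 2. Sesn2 was -1.05 (SE 0.31, adjusted p = 0.032), a call lost without Rb1KO replicate 2 (-0.60, adjusted p = 0.051) or without any 1 of the WT arrays (adjusted p up to 0.075).

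In TKO against Rb1KO MEFs Sesn2 was 1.24 higher (adjusted p = 0.037) and Ddit4 1.75 higher (adjusted p = 0.025). Both were lost without TKO replicate 2 or 3, Sesn2 also without Rb1KO replicate 3 and Ddit4 without Rb1KO replicate 2, with adjusted p up to 0.12. Sesn1, a relative of Sesn2, and Tigar, a phosphatase that slows glycolysis, were called in no comparison. Other Tigar probe sets differed from the one read: one was called higher against WT in TKO-Ras (1.07), TKO (0.91) and Rb1KO MEFs (0.92), and another in Rb1KO MEFs (0.44, adjusted p = 0.021). Sesn1 was the one member in which WT replicate 3 was highest by over 1 log2 unit, at 10.06 against 8.42 and 8.11, and without that array it was 0.72 higher in Rb1KO than in WT MEFs (adjusted p = 0.0080).

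The spread between replicates was uneven. The median SD of the 29 genes was 0.16 in TKO-Ras, 0.18 in TKO, 0.20 in Rb1KO and 0.53 in WT MEFs, against 0.15, 0.14, 0.13 and 0.16 over all probe sets in the same order. WT replicate 3 was the lowest WT array for 21 of the 29 genes and for 38.3% of all probe sets. It was lowest by over 1 log2 unit for 10 of the 29, Mdm2, Cdkn1a, Btg2, Ccng1, Plk2, Eda2r, Perp, Aen, Zmat3 and Polk, against 2.43% of all probe sets. What sets this array apart was not tested.

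Each WT comparison was therefore also fitted without WT replicate 3. In Rb1KO against WT MEFs the count stayed at 16, of which 13 were shared with the fit of all arrays: Mdm2 and Tnfrsf10b joined the lower genes and Sesn1 the higher ones, while Xpc, Sesn2 and Pml were lost, and 23.9% of all probe sets were called. In TKO against WT MEFs the count was 7 of 29 where 21.0% of all probe sets were called, with Ppm1d and Fas higher and Ccng1 (-0.80), Cdkn1a (-0.60), Plk2 (-0.48), Eda2r (-0.79) and Polk (-0.94) lower. In TKO-Ras against WT MEFs it was 13, with 2 higher and 11 lower, where 27.6% of all probe sets were called. The median of the 29 genes was then -0.35 in TKO-Ras, -0.15 in TKO and -0.62 in Rb1KO MEFs, so that Rb1KO MEFs again had the lowest median against WT.

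**Figure D4:**
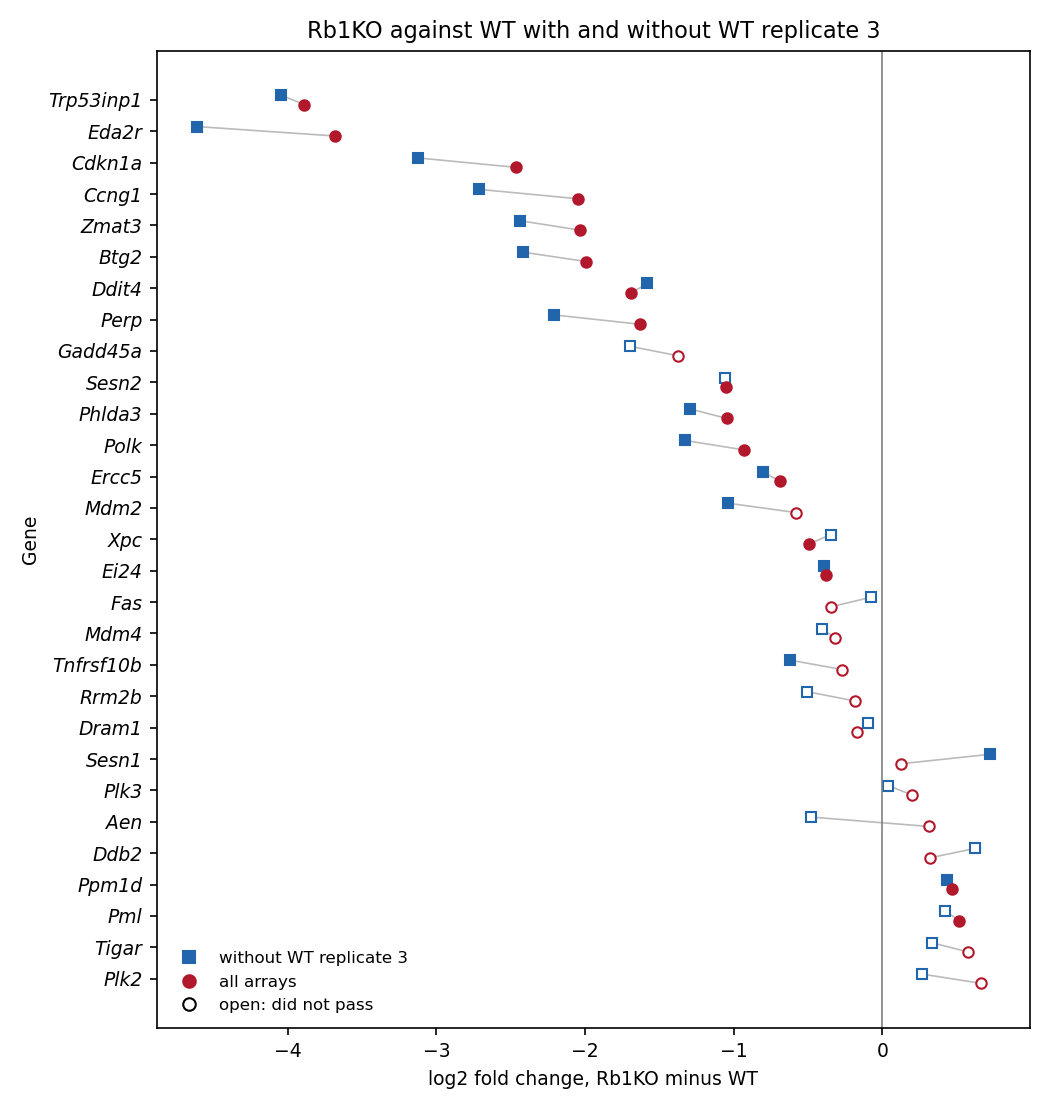
Log2 fold change of each of the 29 genes in Rb1KO against WT MEFs, fitted without WT replicate 3 (squares) and with all arrays (circles), with filled symbols for an adjusted p under 0.05. Leaving the array out moved Cdkn1a to -3.12, Ccng1 to -2.71, Eda2r to -4.61 and Mdm2 to -1.04, and turned Aen to the other side of 0 without a call in either fit.

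The genes that act on p53 were read beside its targets. Of 32 listed regulators, kinases, ligases, acetylases and relatives of p53, 30 were measured. Against WT MEFs, 11 were higher and 3 lower in TKO-Ras, 8 higher and 3 lower in TKO, and 7 higher and 2 lower in Rb1KO MEFs. As shares of the 30 these are 36.7% and 10%, 26.7% and 10%, and 23.3% and 6.67%, beside 15.5% and 12.4%, 10.5% and 9.01%, and 12.5% and 10.1% of all probe sets, so the lower counts are near or under the share over all probe sets. The same shares were taken of the genes with a probe set above background on at least 3 arrays. They were 24.6% and 19.4%, 18.7% and 13.2%, and 20.9% and 16.6%. The 23.3% higher in Rb1KO MEFs is near its share. In TKO against Rb1KO MEFs 2 were higher and 3 lower (6.67% and 10%, beside 4.19% and 2.99% of all probe sets). In TKO-Ras against TKO MEFs 2 were higher and 1 lower (6.67% and 3.33%, beside 2.54% and 3.13%).

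Cdkn2a, which encodes the Mdm2 inhibitor Arf and the kinase inhibitor p16, was the regulator with the widest change. Its probe set is named for the locus and does not tell Arf from p16. Cdkn2a had 4.30, 3.92 and 3.27 in TKO-Ras MEFs, 6.20, 6.10 and 4.07 in TKO MEFs, 12.99, 13.32 and 13.25 in Rb1KO MEFs, and 12.08, 11.20 and 12.98 in WT MEFs. It was below background on all TKO-Ras arrays, at least 124-fold lower than in WT MEFs (adjusted p = 1.5e-06). In TKO MEFs it had -6.62 against WT (SE 0.55, adjusted p = 1.4e-05) and -7.73 against Rb1KO MEFs (adjusted p = 7.7e-06). In Rb1KO against WT MEFs its log2 fold change was 1.10 (adjusted p = 0.19). Cdkn2a was thus high in Rb1KO and WT MEFs and low in TKO-Ras and TKO MEFs. Its part in the levels of the p53 targets was not tested.

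Chek1, the checkpoint kinase downstream of Atr, was higher than in WT MEFs by 1.61 in TKO-Ras (adjusted p = 2.8e-05), 1.61 in TKO (adjusted p = 5.0e-05) and 1.67 in Rb1KO MEFs (adjusted p = 3.1e-05). The methyltransferases moved apart: Setd7 was -1.23 in TKO-Ras against WT MEFs (adjusted p = 2.2e-05) and -0.80 against TKO MEFs (adjusted p = 0.0025), while Prmt5 was 1.17 higher in TKO-Ras (adjusted p = 4.9e-04), 0.81 in TKO (adjusted p = 0.0074) and 1.07 in Rb1KO MEFs (adjusted p = 0.0011). Kmt5a was 1.11 higher in Rb1KO than in WT MEFs (adjusted p = 3.0e-04). These calls held without any 1 array. Against WT MEFs Kmt5a was also called higher in TKO-Ras and TKO MEFs, and Setd7 lower in TKO and Rb1KO MEFs. With 1 array left out, Kmt5a had 0.74 to 0.998 in TKO-Ras and 0.42 to 0.68 in TKO MEFs. Setd7 then had -0.51 to -0.30 in TKO and -0.62 to -0.41 in Rb1KO MEFs. The TKO call was lost in 4 of the 6 fits for Kmt5a and in 3 for Setd7, and the TKO-Ras and Rb1KO calls were kept.

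Of 24 further p53 targets 22 were measured. Against WT MEFs 5 were higher and 6 lower in TKO-Ras, 3 higher and 3 lower in TKO, and 1 higher and 5 lower in Rb1KO MEFs. As shares of the 22 these are 22.7% and 27.3%, 13.64% and 13.64%, and 4.55% and 22.7%, beside the same shares of all probe sets as above. Those of TKO MEFs are close to them. Of the genes above background on at least 3 arrays the shares were 24.6% and 19.4%, 18.7% and 13.2%, and 20.9% and 16.6%. The shares of TKO-Ras MEFs and the lower share of Rb1KO MEFs are not far from these. In TKO against Rb1KO MEFs Ak1 and Apaf1 were higher and 0 were lower (9.09% and 0%, beside 4.19% and 2.99% of all probe sets). In TKO-Ras against TKO MEFs Epha2 was higher and Tap1 lower (4.55% each, beside 2.54% and 3.13%). Without WT replicate 3 the counts were 6 higher and 6 lower in TKO-Ras, 7 and 4 in TKO, and 2 and 7 in Rb1KO MEFs. In these fits 27.6%, 21% and 23.9% of all probe sets were called, in the same order.

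Ak1, an adenylate kinase, had the pattern of Cdkn1a. It had 9.98, 9.77 and 9.70 in TKO-Ras MEFs, 9.84, 9.77 and 9.60 in TKO MEFs, 7.36, 6.93 and 7.37 in Rb1KO MEFs, and 10.03, 10.44 and 9.30 in WT MEFs. The Rb1KO arrays lay below the other 9. Its log2 fold change was -2.70 in Rb1KO against WT (SE 0.24, adjusted p = 1.7e-05) and 2.51 in TKO against Rb1KO MEFs (SE 0.24, adjusted p = 7.3e-05), both held without any 1 array. The ephrin receptor Epha2 was 2.18 higher in TKO-Ras than in WT MEFs (adjusted p = 8.6e-04) and 1.72 higher than in TKO MEFs (adjusted p = 0.017), the second lost without TKO-Ras replicate 1 or 3 or TKO replicate 2 or 3 (adjusted p up to 0.065). Thbs1, the matrix protein thrombospondin 1, was -1.94 in TKO-Ras (adjusted p = 0.042) and -2.05 in Rb1KO MEFs (adjusted p = 0.038) against WT, and each call was lost in 5 of the 6 fits that left out 1 array. The cytokine gene Lif was 1.56 higher in TKO than in WT MEFs (adjusted p = 0.035), which was lost without any 1 of the TKO arrays.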

How the data were processed

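RNA of MEFs (100 ng per array) was hybridised to 12 arrays. The authors made the log2 expression values by RMA in Partek Genomics Suite 6.5 before they deposited them, per the methods and the submitters' notes. The log2 scale itself was read from the range of 2.18 to 14.92 (medians 5.34 to 5.41). The 64 control probe sets were left out, leaving 45037, of which 34945 name 1 gene, 932 several and 9160 none. Array files hold no detection calls, so the background level of 5.13 was set where 95% of the values of 44 olfactory receptor probe sets lie below it, and 52.9% to 54.2% of probe sets per array exceeded it. A fold against a group wholly at background is a bound computed against that level. The number of arrays limits the precision.

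All 4 groups entered 1 fit in limma 3.58.1 (R 4.3.3; 8 residual degrees of freedom) with 5 contrasts, 2-sided, with Benjamini-Hochberg adjustment over all probe sets. The script was tested on simulated data. The members and gene lists were chosen with earlier results of these data known. Array values are given for Mdm2, Cdkn1a and members called with a 2-fold change or more and no overlap between the groups, and for Cdkn2a; up to 4 further genes of each pathway list, those with the widest passing change, are named, and array values of Polk, Gadd45a, Sesn1 and Ak1 were added after their values were seen. Alternatives were an intensity trend, no moderation, array weights, a replicate block, only the groups compared, median centring, cyclic loess, a background filter, a gene's probe sets averaged, probe sets without a suffix, 1 probe set per gene, and each array left out, alone or with TKO replicate 3 beside WT replicate 3. Same-numbered arrays were not paired by the labels, and 8 of the 18 pairs of arrays had correlated deviations over 0.1 (range -0.21 to 0.31). No 2 arrays held the same values. Promoter windows are from RefSeq (GRCm38.p6). Scripts used Python 3.11.15, pandas 2.3.3 and matplotlib 3.10.9.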

Additional observations from a re-analysis of the deposited data

Results flagged for a closer look

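Ercc5 was marked because all TKO arrays (8.61 to 8.72) lay above and all Rb1KO arrays (7.54 to 7.85) below all WT arrays (8.13 to 8.58), so that the changes against the shared WT arrays ran in opposite directions. The nearest TKO and WT arrays were only 0.029 apart. Over all probe sets 34.4% showed no overlap between TKO and WT arrays, and 39.1% none between Rb1KO and WT arrays. The direct comparison of TKO with Rb1KO MEFs gave a log2 fold change of 1.005 (SE 0.14, adjusted p = 9.6e-04 from limma). The change in TKO against WT MEFs alone was 0.32 and did not pass (adjusted p = 0.14).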

How the results depend on the processing

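Over the 5 comparisons 25 of the 43 calls were kept under every alternative and every left-out array, and no called value changed sign. These were 4 of 8 calls in TKO-Ras, 1 of 2 in TKO (Ppm1d) and 10 of 16 in Rb1KO MEFs against WT, 7 of 12 in TKO against Rb1KO MEFs, and 3 of 5 in TKO-Ras against TKO MEFs (Plk3, Fas and Dram1). The number of members called ran, with 1 array left out, from 6 to 13 in TKO-Ras, 1 to 7 in TKO and 12 to 16 in Rb1KO MEFs against WT, from 7 to 13 in TKO against Rb1KO MEFs and from 3 to 4 in TKO-Ras against TKO MEFs. The lowest of TKO against Rb1KO MEFs, 7, came without TKO replicate 3, and the highest of the WT comparisons in TKO and TKO-Ras MEFs without WT replicate 3. Without both of these arrays the counts were 13, 7, 17, 14 and 6 in the same order. Of all probe sets 28.1%, 20.8%, 24.3%, 8.55% and 6.67% were then called. Without moderation the count was 1 in TKO against WT, 7 in TKO against Rb1KO and 3 in TKO-Ras against TKO MEFs. With array weights it was 4 in TKO against WT and 8 in TKO-Ras against TKO MEFs, and with only the groups compared 1 and 8. With the replicate block it was 3 in TKO-Ras against TKO MEFs and 6, 2, 16 and 10 in the other comparisons in the order above, and the same-numbered arrays share only a number. Calls over all probe sets moved with the setting too, so the member counts are to be read beside them. In TKO against WT MEFs 4725 were higher and 4060 lower in the main fit. With array weights these were 6840 and 6109, and with only the groups compared 3326 and 2698. In TKO against Rb1KO MEFs 1886 were higher and 1345 lower in the main fit, and 1315 and 910 without TKO replicate 3. With array weights these were 2979 and 2533, and with only the groups compared 2491 and 1824. Without WT and TKO replicate 3 they were 2228 and 1624. In these fits 14, 14 and 12 members were higher and 2, 3 and 2 lower, against 12 and 0 in the main fit. The lower members without both arrays were Plk2 and Sesn1. The causes of these shifts were not tested.

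Mdm2 and Cdkn1a changed sign where neither was called with all arrays. For Mdm2, probe sets without a suffix gave -0.047 in TKO-Ras, -0.25 in TKO and 0.11 in Rb1KO MEFs against WT and -0.37 in TKO against Rb1KO MEFs; that probe set is at background. In TKO against WT MEFs Mdm2 was -0.10 with array weights, -0.30 without WT and TKO replicate 3, and -0.32 (without WT replicate 3) to 0.49 with 1 array left out. Cdkn1a against WT MEFs was -0.37 in TKO-Ras and -0.35 in TKO MEFs with array weights, -0.018 and -0.054 with cyclic loess, and -0.56 and -0.58 without WT and TKO replicate 3. With 1 array left out it was -0.56 to 0.50 in TKO-Ras and -0.60 to 0.47 in TKO MEFs. In TKO-Ras against TKO MEFs Cdkn1a was -0.024 with array weights, -0.00049 with arrays centred on their median, and -0.035 to 0.13 with 1 array left out.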
